A study of Bos taurus with 6 samples.

Results

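The miRNAs described are bta-miR-155, bta-miR-146a and bta-miR-146b, which are linked by the inflammatory transcription factor NF-kB. They were taken by name from the miRNAs listed in the deposited files, by a rule that uses no measured value, and make up 3 of the 1028 listed. All 3 passed the filter on low reads and are among the 365 miRNAs tested. The libraries came from primary bovine granulosa cells, the somatic cells that surround the oocyte, aspirated from small antral follicles of 3 to 6 mm of ovaries from a slaughterhouse. After 24 h of culture in medium with exosome-depleted serum, cells were either kept at 37 °C (control, 3 libraries) or moved to 42 °C (heat stress, HS, 3 libraries) for a further 24 h. Both groups were grown in the same medium and differ in the labels by temperature alone. Libraries carry the replicate numbers 1 to 3 in each group and are described as biological replicates. How many animals were pooled for a replicate, and whether a number stands for the same cells at both temperatures, is not given in the sources used here, so that p-values measure the spread between these libraries.

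NF-kB is activated by bacterial products, cytokines and cellular stress, and induces transcription of the genes of both miRNA families. miR-155 is processed from a host transcript known for its induction in activated macrophages, dendritic cells and lymphocytes, and it represses inhibitors of inflammatory signalling such as SOCS1 and INPP5D. miR-146a and miR-146b are encoded by separate genes and act as a brake, because they repress IRAK1, a kinase, and TRAF6, a ubiquitin ligase and adaptor, which carry signals from Toll-like and interleukin-1 receptors to NF-kB. In the ovary, inflammatory signalling takes part in ovulation, follicular atresia and luteal regression.

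The 6 libraries held 2076239 to 4590971 recovered miRNA reads, and control replicate 1 was the shallowest. Values are given as normalised CPM, that is CPM computed on library sizes rescaled with TMM factors, which assume that most miRNAs do not change. Each miRNA read covers a whole mature miRNA, so no correction for length was made. No miRNA is specific to granulosa cells, and the label was examined through markers of several cell types. bta-miR-21-5p, bta-miR-132 and bta-miR-212, which gonadotropins induce in granulosa cells, were present in every library. Their summed level was 145274 to 204890.5 normalised CPM in control and 166184 to 201384 in HS cells. Nearly all of this sum was bta-miR-21-5p, with a mean of 182970.1 over the 6 libraries, against 996 for bta-miR-132 and 34.2 for bta-miR-212. As bta-miR-21-5p is also in the list of miRNAs linked to NF-kB further below, the sum says little about the granulosa label. Markers of blood, vessel, stromal and epithelial cells are given further below.

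bta-miR-155, the pro-inflammatory member, was among the most abundant miRNAs of these cells. Control replicates 1, 2 and 3 held 138129, 115129 and 102206 normalised CPM of it, and HS replicates 1, 2 and 3 held 131841, 115380 and 101311. It therefore took the second place in each of the 6 libraries, with shares of 10.3% to 13.6% of all miRNA reads. The miRNA above it was bta-miR-21-5p, at 144234 to 203788 normalised CPM, and the one below it was bta-let-7a-5p, at 65528 to 74537. Neither range overlapped that of bta-miR-155, and the order of these miRNAs was the same in 6 of 6 libraries. Whether ligation and amplification favour one mature miRNA over another was not measured, and such an effect would enter levels set side by side between miRNAs.

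The groups overlapped for bta-miR-155, and in both of them replicate 1 was highest and replicate 3 lowest. Control cells averaged 118488 ± 18196 normalised CPM and HS cells 116177 ± 15281 (SD over n = 3 libraries in each group). In limma fitted across all tested miRNAs, its log2 fold change of HS against control was -0.026 ± 0.14 (SE; adjusted p = 0.964). On a linear scale the 95% interval of this change ran from 0.781-fold to 1.24-fold. Between libraries of the same replicate number the HS value differed from the control value by -4.55%, 0.218% and -0.875% for numbers 1, 2 and 3. In bulk RNA, fewer cells of a type and less of a miRNA per cell cannot be told apart.

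The miR-146 members, which restrain NF-kB, were present at far lower levels than bta-miR-155. For bta-miR-146a, control replicates 1, 2 and 3 held 361, 1059 and 800.2 normalised CPM, and HS replicates 1, 2 and 3 held 385, 729 and 725. Replicate 1 was lowest in both groups, control replicate 2 was highest, and the groups overlapped. For bta-miR-146b, the control libraries held 415, 1099 and 1747 normalised CPM and the HS libraries 444, 1093 and 1766, listed by replicate number. For this miRNA each HS library lay next to the control library of the same number, and the groups overlapped throughout their range.

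**Figure D1:**
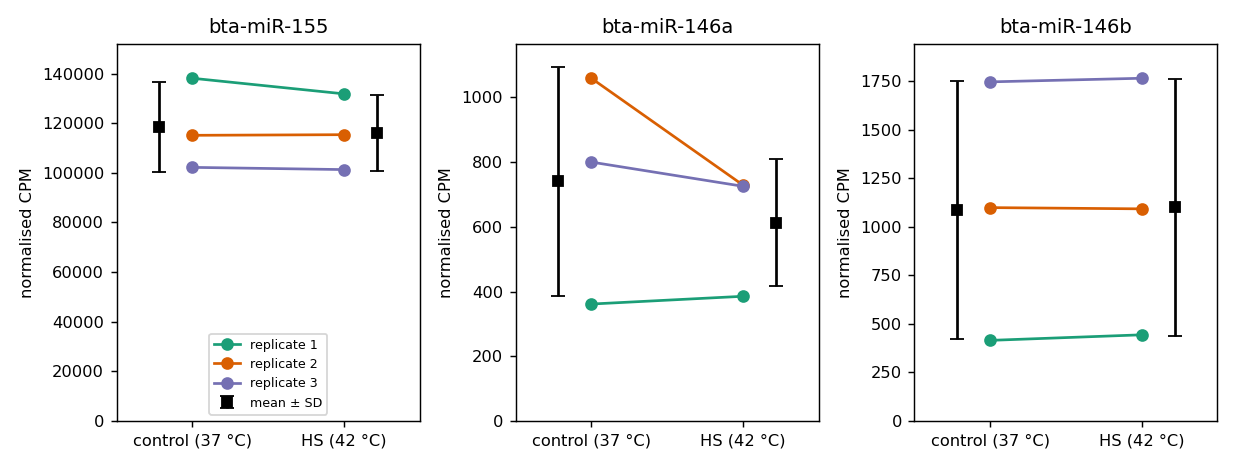
Normalised CPM (linear axes that start at 0) of each miRNA in control cells (37 °C) and HS cells (42 °C). Coloured points are libraries, lines join libraries of the same replicate number, and black squares with bars are the group mean and SD. bta-miR-146b lies at 415 and 444 in replicate 1, at 1099 and 1093 in replicate 2 and at 1747 and 1766 in replicate 3.

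By mean level over the 6 libraries bta-miR-146b stood at place 74 and bta-miR-146a at place 88. Their neighbours in this order were bta-miR-29b and bta-miR-2478 for bta-miR-146b, and bta-miR-3431 and bta-miR-17-5p for bta-miR-146a. The ranges of the members overlapped those of all 4 neighbours, and no neighbour was on the same side of its member in all 6 libraries, so these places are not resolved beyond the spread between libraries.

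To determine whether HS changed the level of the miR-146 members, the same fit was used. For bta-miR-146a, control cells averaged 740.3 ± 353 normalised CPM and HS cells 613 ± 198 (SD over n = 3 libraries in each group), and the log2 difference was -0.20 ± 0.437 (SE; adjusted p = 0.947 in limma). For bta-miR-146b these averages were 1087 ± 666 and 1101 ± 661 (SD), and the log2 difference was 0.034 ± 0.65 (SE; adjusted p = 0.981 in limma). The 95% intervals ran from 0.426-fold to 1.79-fold for bta-miR-146a and from 0.352-fold to 2.98-fold for bta-miR-146b. The interval of bta-miR-146b was thus the widest of the 3 in this fit, which has no term for the replicate number. The sign of the change was not stable for any of the 3 miRNAs, as it turned when single libraries were left out, for bta-miR-155 also with recomputed TMM factors and for bta-miR-146b with upper quartile factors.

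At the thresholds of the study (adjusted p ≤ 0.2 together with |log2 fold change| ≥ 1), 0 of the 3 miRNAs passed in limma, against 11 of 365 tested miRNAs (3.01%). At an adjusted p under 0.05 again 0 of the 3 passed, against 8 of 365 (2.19%). The unadjusted p was under 0.05 for 0 of the 3 in limma, in the quasi-likelihood test of edgeR and in DESeq2, and neither of the latter tools called any of them. In limma 53 of 365 miRNAs (14.5%) had such a p. Groups were fully apart, with every HS library above or below every control library, in 73 of 365 miRNAs (20%) and in 0 of these 3.

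**Figure D2:**
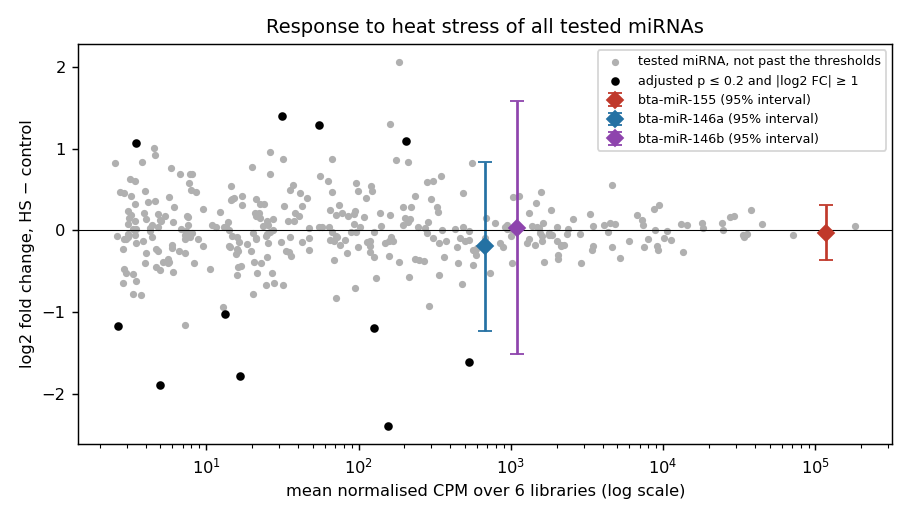
Log2 fold change of HS against control (linear axis) against the mean normalised CPM over 6 libraries (log axis) for the 365 tested miRNAs. The 11 black points passed both thresholds (adjusted p ≤ 0.2, |log2 fold change| ≥ 1) and the grey points did not, and coloured diamonds are bta-miR-155, bta-miR-146a and bta-miR-146b with their 95% intervals, which all include 0.

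The spread that made these intervals wide was not alike in the 3 miRNAs. Within control cells the highest library exceeded the lowest 1.35-fold for bta-miR-155, 2.93-fold for bta-miR-146a and 4.21-fold for bta-miR-146b. Within HS cells these ratios were 1.3, 1.89 and 3.98. The residual SD within a temperature group, on the log2 scale, was 0.205 for bta-miR-155, 0.68 for bta-miR-146a and 1.03 for bta-miR-146b, against a median of 0.266 for all tested miRNAs. In bta-miR-146b the spread between libraries of one group was thus among the wider ones, at the 96.7th percentile of the tested miRNAs.

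To determine whether levels differed between replicate numbers, this difference was tested in limma with temperature in the model, a test chosen with earlier results of these data known. bta-miR-146b differed between replicate numbers (F = 119, unadjusted p = 7.73e-05, limma adjusted p = 0.00843), and its p was the second lowest of the 365 tested miRNAs, of which 7 (1.92%) passed an adjusted p under 0.05. Replicate 1 was low, replicate 2 intermediate and replicate 3 high at both temperatures. In the study's read statistics, replicate 1 of each group also had the lowest percentage of reads mapped to annotated miRNAs within its group. It had the highest percentage mapped to the genome. Whether this difference in library composition takes part in the difference between numbers was not tested. With temperature and number both in the model, the residual SD of bta-miR-146b on the log2 scale was 0.0387, on 2 residual degrees of freedom, against a median of 0.229 for all tested miRNAs. The HS value differed from the control value of the same number by 6.9%, -0.583% and 1.07% for numbers 1, 2 and 3. With edgeR's quasi-likelihood F test the adjusted p was 0.00857. The call depended on both libraries of numbers 1 and 3: the limma adjusted p was 0.228 without control replicate 1, 0.117 without HS replicate 1, 0.0849 without control replicate 3 and 0.0627 without HS replicate 3.

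bta-miR-146a and bta-miR-155 did not pass this test over all miRNAs. The limma adjusted p was 0.12 for bta-miR-146a and 0.135 for bta-miR-155, with unadjusted p-values of 0.00384 and 0.00507. For bta-miR-146a the adjusted p was 0.0245 without control replicate 2 and 0.0124 without HS replicate 2, fits in which 14 of 377 and 38 of 379 tested miRNAs passed. It was 0.299 to 0.625 when any one of the other 4 libraries was left out. Once the number was in the model, the residual SD on the log2 scale was 0.0261 for bta-miR-155 and 0.225 for bta-miR-146a. For bta-miR-146a the same-numbered libraries differed by 6.63%, -31.1% and -9.35%, so that the number 2 pair stood apart from the agreement seen in the other members.

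**Figure D3:**
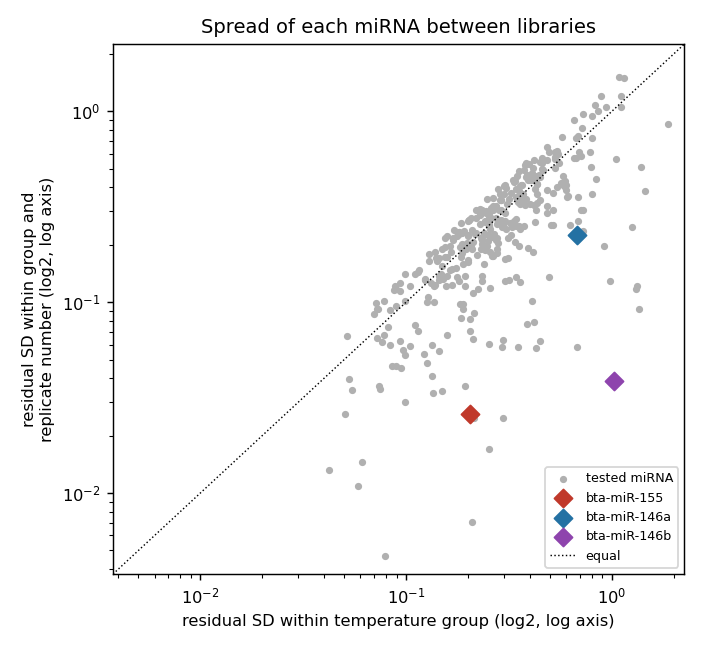
Residual SD of log2(normalised CPM + 1) within temperature group (x axis) against the residual SD within group and replicate number (y axis) for the 365 tested miRNAs, both on log axes. Diamonds are bta-miR-155, bta-miR-146a and bta-miR-146b, and the dotted line marks equal values. bta-miR-146b moves from 1.03 to 0.0387, whereas the median over all miRNAs moves from 0.266 to 0.229.

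The reads behind these values set the counting error. bta-miR-155 rested on 282921 to 529940 reads per library, bta-miR-146a on 740 to 4876 and bta-miR-146b on 850 to 8295. The share of bta-miR-146b among all miRNA reads was 0.0409% (95% exact Clopper-Pearson interval 0.03823% to 0.04379%) in control replicate 1 and 0.0428% (0.04054% to 0.04516%) in HS replicate 1. In replicate 3 it was 0.176% (0.1713% to 0.18%) in control and 0.181% (0.1768% to 0.1846%) in HS cells. The intervals of same-numbered libraries overlapped for 3 of 3 numbers in bta-miR-146b, and those of numbers 1 and 3 were far apart. For bta-miR-155 and for bta-miR-146a they overlapped for 1 of 3 numbers. Reads were collapsed by molecular identifier before counting, and the intervals cover counting error only.

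Same-numbered libraries were nonetheless different libraries. A chi-square comparison of their reads over all miRNAs gave 57.7 to 289 per degree of freedom, 84.3 to 431 for libraries of the same group and 131 to 345 for libraries that shared neither, where sampling noise alone gives about 1. These ranges overlap. The number 2 pair, at 289, had a higher value than control replicate 2 had with HS replicate 1 (235) or HS replicate 3 (207). Such values grow with read depth, so pairs of unlike depth are not compared on an equal scale. HS replicate 1 was shallower than HS replicate 2, and HS replicate 3 was deeper.

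Shares, which scale each library by its total miRNA reads in place of TMM factors, were also compared between the groups. bta-miR-155 accounted for 11.9% ± 1.68 of control reads and 11.6% ± 1.18 of HS reads (SD over n = 3; p = 0.9, exact two-sided permutation test). The share of bta-miR-146a was 0.0744% ± 0.0362 and 0.0617% ± 0.0212 (exact permutation test, p = 0.6), and that of bta-miR-146b was 0.109% ± 0.0674 and 0.111% ± 0.0689 (exact permutation test, p = 0.8). With 3 libraries against 3 this test cannot go below 0.1, and the differences were smaller than the SD between replicates in each case.

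The balance between the pro-inflammatory and the restraining miRNAs was followed as the ratio of bta-miR-155 reads to the reads of bta-miR-146a and bta-miR-146b together. By replicate number, the ratio was 178, 53.3 and 40.1 at 37 °C and 159, 63.3 and 40.7 at 42 °C. It was highest in replicate 1 at both temperatures, 4.43 times the lowest in control and 3.91 times in HS cells. On the log2 scale the ratio averaged 6.18 ± 1.14 for control and 6.21 ± 1 for HS cells (SD over n = 3), and the difference of 0.035 was far smaller than these SDs (p = 0.9, exact two-sided permutation test). bta-miR-155 thus had at least 40.1 reads for each miR-146 read in every library.

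The miR-146 forms did not keep the same proportion. bta-miR-146b made up 53.5%, 50.9% and 68.6% of the miR-146 reads at 37 °C, and 53.5%, 60% and 70.9% at 42 °C, by replicate number. Its share was highest in replicate 3 of both groups, with exact Clopper-Pearson intervals of 67.6% to 69.5% in control and 70% to 71.7% in HS cells. The log2 ratio of bta-miR-146a to bta-miR-146b averaged -0.46 ± 0.582 for control and -0.69 ± 0.548 for HS cells (SD over n = 3; p = 0.5, exact two-sided permutation test). Between libraries of the same number the HS ratio minus the control ratio was -0.0037, -0.53 and -0.16 on the log2 scale, below 0 in 3 of 3 cases (exact two-sided sign-flip test, p = 0.25, the smallest that 3 pairs can give). The mature forms are near-identical and differ close to the 3′ end, and how reads that match both were assigned is not given in the sources used here, so their split is uncertain. Their sum does not depend on how such reads were divided between the forms, but would change if they were discarded or counted for both. That sum took 0.0766%, 0.219% and 0.256% of control reads and 0.08%, 0.184% and 0.255% of HS reads, by replicate number, and was again lowest in replicate 1 of both groups.

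To find the miRNAs whose pattern was most like each member, the log2(normalised CPM + 1) of every tested miRNA was centred on its own mean over the 6 libraries and the root mean square distance between profiles was taken. For bta-miR-146a the nearest was bta-miR-142-3p, at a distance of 0.146 log2 units, followed by bta-miR-326 at 0.221 and bta-miR-29d-3p at 0.31, against a median of 0.609 over all tested miRNAs. bta-miR-142-3p is made in cells of the blood lineage and rested here on 16 to 111 reads per library. For bta-miR-146b the nearest were bta-miR-199b at 0.344, bta-miR-326 at 0.373 and bta-miR-2285t at 0.374, against a median of 0.889. bta-miR-142-3p was at place 4 for this member and bta-miR-146a at place 5. From bta-miR-146a, in contrast, the partner bta-miR-146b stood only at place 51 of 364. The other near profiles were also of low miRNAs. Mean levels were 7.49 normalised CPM for bta-miR-199b, 22.6 for bta-miR-326, 21.3 for bta-miR-2285t and 7.21 for bta-miR-29d-3p, so these distances include counting error.

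bta-miR-155 had another profile. Its nearest miRNAs were bta-miR-362-5p at 0.0711 log2 units, bta-miR-221 at 0.0763 and bta-miR-130a at 0.0772, against a median of 0.335. The miR-146 forms were among the most distant, at places 332 and 356 of 364. bta-miR-155 was highest in replicate 1, where bta-miR-146a and bta-miR-146b were lowest.

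As miR-155 and miR-146a are abundant in leukocytes, markers of blood cells were examined beside them. All 4 leukocyte markers were present in every library, with a summed level of 700.2 to 843 normalised CPM in control and 614 to 749 in HS cells. For bta-miR-142-3p, control replicates 1, 2 and 3 held 7.81, 24.1 and 21.2 normalised CPM, and HS replicates 1, 2 and 3 held 8.63, 14.4 and 19.8. It was lowest in replicate 1 of both groups and highest in control replicate 2, as was bta-miR-146a.

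bta-miR-142-5p, from the other arm of the same hairpin, had levels of 263, 357 and 429 normalised CPM at 37 °C and of 248, 391 and 425 at 42 °C, and stood at place 7 from bta-miR-146a and at place 10 from bta-miR-146b. bta-miR-150, a miRNA of mature lymphocytes, went the other way, with levels of 261, 45 and 82.7 at 37 °C and of 162, 77.2 and 57.7 at 42 °C, highest in replicate 1 of both groups. bta-miR-223, a myeloid miRNA, had levels of 311, 274 and 259 at 37 °C and of 196, 267 and 200.1 at 42 °C, with no such order. In distance from the profile of bta-miR-146a, bta-miR-150 stood at place 359 of 364, at 1.41 log2 units, and bta-miR-223 at place 163, at 0.595, close to the median of 0.609. Of the 4 markers, 2 were thus lowest in replicate 1 of both groups, as the miR-146 forms were, and 2 were not. In the test between replicate numbers the limma adjusted p was 0.262 for bta-miR-142-3p, bta-miR-142-5p and bta-miR-150 and 0.819 for bta-miR-223, and the part of leukocytes in the miR-146 levels was not tested.

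Relative to bta-miR-155, the leukocyte markers were low. bta-miR-142-5p, the most abundant of them by mean level, reached 0.188% to 0.42% of the level of bta-miR-155 in the same library. In distance from the profile of bta-miR-155, bta-miR-223 stood at place 111 of 364, at 0.255 log2 units, bta-miR-142-5p at place 271, bta-miR-150 at place 338 and bta-miR-142-3p at place 340. bta-miR-150 was highest in replicate 1 of both groups, as bta-miR-155 was. Of the erythroid markers, bta-miR-486 had a level of 12 to 60.1 normalised CPM, bta-miR-451 had 2 to 8 reads and bta-miR-144 at most 1 read per library. The part of leukocytes in the level of bta-miR-155 was not tested.

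**Figure D4:**
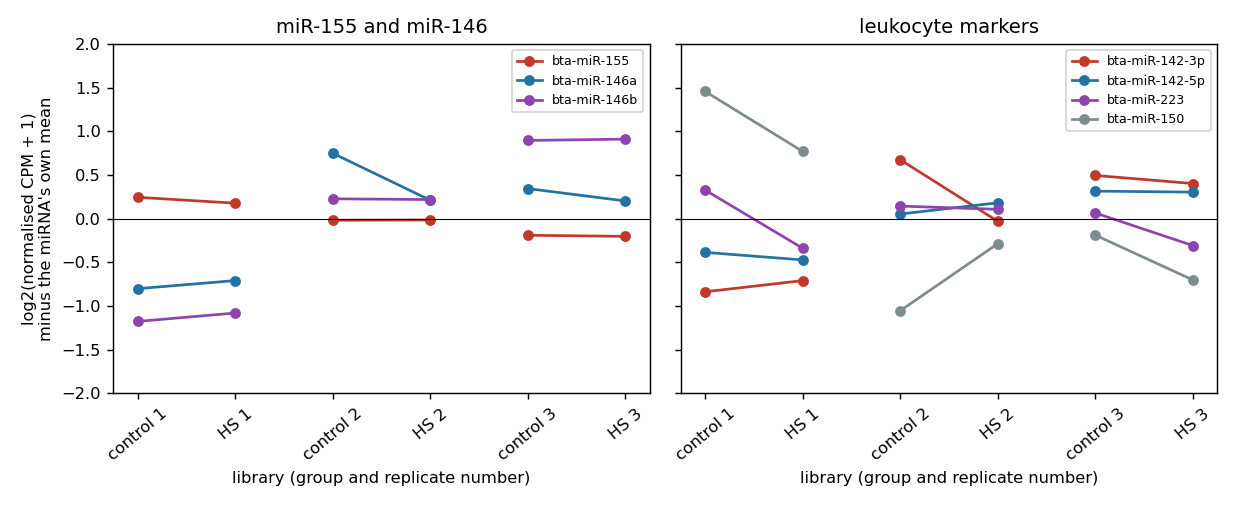
Profiles over the 6 libraries, ordered by replicate number, as log2(normalised CPM + 1) minus the mean of each miRNA (linear axis), for bta-miR-155 and the miR-146 forms (left) and for the leukocyte markers (right). Lines join libraries of the same number. bta-miR-146a and bta-miR-142-3p are both lowest in replicate 1 and highest in control replicate 2, whereas bta-miR-155 and bta-miR-150 are highest in control replicate 1.

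Other miRNAs linked to NF-kB or innate immune signalling were examined as a list of 16, all of which were tested. None was called as higher or lower in HS cells by limma, edgeR or DESeq2 at the thresholds above, which 3.01% of all tested miRNAs passed in limma, so that a count of 0 in 16 is near that share. An unadjusted limma p under 0.05 was found for 0 of the 16, against 14.5% of all tested miRNAs. Their log2 fold changes ran from -0.67 to 0.34 with a median of 0.046, against a median of -0.0015 over all tested miRNAs. bta-miR-21-5p, which is induced with NF-kB and represses PDCD4, differed by 0.054 on the log2 scale (adjusted p = 0.959 in limma). bta-let-7i, which represses TLR4, had 0.084 (limma adjusted p = 0.853). bta-miR-125a and bta-miR-16b, the next by level, had 0.25 and -0.053 (limma adjusted p = 0.839 and 0.844). bta-miR-147, which is induced by Toll-like receptor signals in macrophages, had the lowest value of the list, -0.67 (limma adjusted p = 0.541).

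The marker lists did not hold a miRNA called between the groups either. Over the marker lists and the list of 16 above, 7 lists together, 30 of 34 miRNAs were tested. These 30 include the 16 already described, so their counts are not separate from those above. Of the 30, 0 were called by limma, edgeR or DESeq2 (3.01% of all tested miRNAs in limma, near which a count of 0 in 30 lies). An unadjusted limma p under 0.05 was found for 0 of them (14.5% of all tested miRNAs). The endothelial markers bta-miR-126-3p and bta-miR-126-5p summed to 228 to 352 normalised CPM in control and 131 to 265 in HS cells, with log2 fold changes of -0.57 and -0.66 (limma adjusted p = 0.418 and 0.481). The 4 mesenchymal markers summed to 389 to 456 in control and 464 to 549 in HS cells, and the 6 epithelial ones to 62 to 96.9 and 51.9 to 88.9. The mesenchymal sum was higher in each HS library than in each control library, a separation that 20% of single tested miRNAs showed in one or the other direction. bta-miR-199a-5p and bta-miR-214 had log2 fold changes of 0.29 and 0.47 (limma adjusted p = 0.463 and 0.519), and bta-miR-143 and bta-miR-145 of -0.12 and -0.19 (limma adjusted p = 0.853 and 0.954). None of these 4 passed the test, and the part of stromal cells in the levels of the 3 miRNAs was not tested.

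By name, all 3 miRNAs matched a single gene in RefSeq (assembly ARS-UCD2.0), namely MIR155, MIR146A and MIR146B, on different chromosomes. As the reads were mapped to the older assembly UMD3.1, no positions are given. None of these genes overlaps another gene of this annotation. The nearest protein-coding genes on either side are MRPL39 and NCAM2 for MIR155, PTTG1 and ATP10B for MIR146A, and CUEDC2 and C26H10orf95 for MIR146B.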

How the data were processed

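Small RNA libraries were prepared from 100 ng of total RNA with adapters that carry molecular identifiers and 16 cycles of PCR. Per the labels and the study's methods, the authors trimmed reads with Cutadapt 1.11, collapsed them by identifier, mapped them to UMD3.1 with Bowtie2 2.2.2, matched mapped reads against miRBase and applied TMM normalisation in edgeR. The deposited signal is TMM-normalised CPM, 1 value per miRNA and library.

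Dividing each library by its smallest value above 0 turned 100% of the values into whole numbers (within 0.01), which were used as recovered reads. miRNAs that passed filterByExpr (edgeR 4.0.16) on these reads were tested with limma 3.58.1 (eBayes with trend, R 4.3.3) on log2(normalised CPM + 1), a pseudocount of 1, with Benjamini-Hochberg adjustment over all 365. This scale understates changes of low miRNAs. The difference between replicate numbers was a moderated F test with temperature in the model. Permutation tests used scipy 1.17.1 (Python 3.11.15). The fits were tested on simulated reads. At an adjusted p ≤ 0.2 with |log2 fold change| ≥ 1, limma called 11 miRNAs and edgeR's quasi-likelihood test, run on the recovered reads, called 10.

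The members are defined by name alone, but they, the marker lists and the tests were chosen with earlier results of these data known. Besides the 3 miRNAs, the text names the 3 miRNAs nearest in profile to each, their neighbours in level, up to 4 of each list by level, and the leukocyte and erythroid markers in full. bta-miR-147 was named after its values were seen. Alternatives were other scalings, filters, pseudocounts and tests, a replicate block, and leaving out each library. Floors are set by counting: 3 reads correspond to 0.639 to 1.46 normalised CPM.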

Additional observations from a re-analysis of the deposited data

How the results depend on the processing

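The number of the 3 miRNAs past the thresholds was 0 under all 20 alternatives, while the number over all tested miRNAs ran from 8 to 12 with all libraries kept and from 8 to 16 with 1 left out, against 11. With recomputed TMM factors the log2 fold change of bta-miR-155 was 0.000807, and with upper quartile factors, which moved the median of all tested miRNAs to -0.178, the values of bta-miR-155, bta-miR-146a and bta-miR-146b were -0.212, -0.381 and -0.151. When each library was left out in turn, the log2 fold change ran from -0.127 to 0.0906 for bta-miR-155, from -0.645 to 0.13 for bta-miR-146a and from -0.545 to 0.582 for bta-miR-146b. The adjusted p for replicate numbers ran from 0.0573 to 0.996, from 0.0124 to 0.625 and from 0.00185 to 0.228 in the same order. Group differences in share ran from -1.07 to 0.609, from -0.0322 to 0.00361 and from -0.0328 to 0.0362 percentage points. The difference in log2 ratio of bta-miR-155 to both miR-146 forms ran from -0.514 to 0.683, and that of bta-miR-146a to bta-miR-146b from -0.563 to 0.0664. Each omission leaves fewer libraries and removes one of 2 same-numbered libraries.

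With the replicate block, limma called 10 miRNAs in all and none of the 3. Their adjusted p-values were 0.895, 0.63 and 0.923, and the 95% interval of the log2 fold change of bta-miR-146b narrowed to -0.249 to 0.318. Deviations from group means correlated at 0.421, -0.117 and 0.616 between control and HS libraries of numbers 1, 2 and 3. The mean correlation of these control libraries with HS libraries of other numbers was -0.176, 0.0451 and -0.34. Same-numbered libraries were thus more alike for numbers 1 and 3 but not for number 2. Of 6 libraries, 4 correlated best with their own number, so the samples were taken to share only a number. Paired exact sign-flip tests gave p = 0.75, 0.5 and 0.5 for the shares of bta-miR-155, bta-miR-146a and bta-miR-146b, 0.75 for the log2 ratio of bta-miR-155 to both miR-146 forms and 0.25 for that of bta-miR-146a to bta-miR-146b, where the smallest possible p is 0.25. With 1 library for each temperature and number, animals, culture and library preparation cannot be told apart, and the cause of the differences between numbers was not tested.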

Other observations

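bta-miR-146b was 1 of 7 tested miRNAs that differed between replicate numbers at a limma adjusted p under 0.05, against 4 with edgeR's quasi-likelihood F test. The number that passed in limma was 0 without control replicate 1 and without HS replicate 1, 1 without control replicate 3 and without HS replicate 3, 14 without control replicate 2 and 38 without HS replicate 2. The others of the 7 were bta-miR-122, bta-miR-1246, bta-miR-182, bta-miR-183, bta-miR-2285t and bta-miR-96, which were named after their values were seen. Of these, bta-miR-182, bta-miR-183 and bta-miR-96 belong to a single conserved cluster, and bta-miR-2285t was also the third nearest profile to bta-miR-146b.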
